A study of Mus musculus with 71 samples.

Results

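The subject is the mouse respiratory chain in sorted microglia: the genes of complexes I, III, IV and V whose symbols begin with Nduf, Uqcr, Cox4 to Cox8 or Atp5, and the protein genes of the mitochondrial genome, whose symbols begin with mt-. Of the 55413 symbols in each expression table, 120 matched these names, and 14 with a ps suffix, which marks pseudogenes, were left out. Of the other 106, 95 had at least 1 TPM (transcripts scaled to a fixed total per library) in 3 or more libraries of each of the 6 tables and are the members described here. They are 84 nuclear genes (37 of complex I, 8 of complex III, 14 of complex IV, 17 of complex V and 8 assembly factors of complex I) and 11 mitochondrial genes (6 of complex I, 1 of complex III, 2 of complex IV and 2 of complex V). The 11 symbols that did not pass were Cox4i2, Cox6c2, Cox7a1, Cox7b2, Cox8b, Cox8c, Ndufa11b, Ndufa4l2, Ndufs6b, mt-Co3 and mt-Nd4l.

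The study measured bulk RNA of microglia from mice that carry a GFP reporter of Spp1, the gene of osteopontin, in 67 full-length libraries (a modified SMART-Seq2) of 2000 sorted cells each. In 4 adult models the disease groups were split into GFP-positive and GFP-negative cells and the reference was wild type: 5 weeks of cuprizone diet, which strips myelin (4 libraries of controls, 3 GFP-negative and 3 GFP-positive); CT2a glioma 21 days after inoculation (4 of each); experimental autoimmune encephalomyelitis, EAE, recovered to clinical score 1-2 (3 of each); and 5xFAD, an amyloid model (4 of each). The labels give 8-10 weeks for the first 3 models and 7 months for the 5xFAD table. Their GFP groups were heterozygous for Spp1-GFP, and in the amyloid model also heterozygous for 5xFAD, so that each wild type reference differed from the GFP groups in genotype, in disease and in the gate, and these cannot be told apart. The other 2 models were strokes made at postnatal day 6 and day 28, with cortex taken at day 9 and day 35; there all 3 groups (4 libraries each) were Spp1-GFP heterozygous, and the reference was microglia of the contralateral cortex, which the column headers name as GFP-negative. By their Xist and Y-linked transcripts, 2 of the 4 cuprizone controls were female and the other cuprizone libraries male, while groups of the other tables matched in sex. Labels do not say whether the libraries of a group came from separate animals, so p-values measure the spread between these libraries.

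The respiratory chain passes electrons from NADH through complex I, ubiquinone, complex III, cytochrome c and complex IV to oxygen, and complex V uses the proton gradient this builds to make ATP. Most subunits are nuclear genes whose proteins are imported, while a small set, most of them central to electron or proton transfer, is transcribed from both strands of the mitochondrial DNA inside the organelle, so the chain depends on the output of both genomes. Microglia are known to shift between oxidative phosphorylation and glycolysis when they become reactive.

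Sequence mattered first for how far the mitochondrial genes could be read. A block on chromosome 1 of GRCm38 (chr1:24611535-24616197, minus strand, GENCODE M21) holds 7 annotated pseudogenes that are nuclear copies of mitochondrial genes. Of these, 5 matched their gene base for base over the whole aligned length, the copy of mt-Co3 (Gm28437) over 783 bases among them. The first 60 bases of this pair are shown because nothing in them, or in the rest of the copy, lets a read be placed.
mt-Co3: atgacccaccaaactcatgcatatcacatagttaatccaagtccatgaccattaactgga
Gm28437: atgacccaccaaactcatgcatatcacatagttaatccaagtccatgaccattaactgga
The copy of mt-Nd3 (Gm28438) differed at 1 of 345 aligned bases, T3C counted from 1 at the first base of the gene, which the capitals mark in the first 60 bases of each.
mt-Nd3: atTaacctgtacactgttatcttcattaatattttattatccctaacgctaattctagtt
Gm28438: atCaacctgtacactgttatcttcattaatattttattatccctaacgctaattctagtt

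The values showed the same ambiguity. In the 4 control libraries of the cuprizone table mt-Co3 was listed at 0, 0, 395 and 444 TPM, and in the 8 control and GFP-negative libraries of the 5xFAD table it was listed at 0 in each. Its neighbour mt-Nd4l was listed at 0, 0, 0 and 155 TPM in the same cuprizone controls. Libraries of 1 group thus jumped from 0 to the highest of these values, while mt-Co1, of the same complex as mt-Co3, was at 965, 1020.2, 1096 and 1098 TPM in those 4 controls. Yet mt-Co1 also has a partial copy in the block, Gm29216, with 99.8% identity over 483 bases. That copy had a mean of 1120 TPM in the cuprizone table, where mt-Co1 had 1278 TPM, so the level of mt-Co1 is uncertain too. When each copy's value was added to its gene by its share of length, the log2 fold change of mt-Co3 between GFP-positive and control libraries of the 5xFAD table was 0.79 ± 0.11, adjusted p = 3.7e-05 (SE, limma). Values of mt-Nd3, mt-Co2, mt-Co3 and mt-Nd4l without the copies are therefore not described singly as changes below. Among nuclear members, Ndufb4 and Ndufb4c share identical sequence, so their separate values are uncertain too.

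Promoters of the nuclear members were searched for short motifs, as a description of sequence only. RefSeq windows of 300 bases around the start (GRCm38.p6, 1 window per symbol) were listed for 70 of the 84. The NRF1 site GCGCATGC was present, on either strand, in 15.71% of these against 2.8% of all 27025 windows. The ETS site CCGGAAG was in 22.86% against 9.12%, and the YY1 core AAGATGG in 15.71% against 6.48%. NRF1, the ETS factor GABP and YY1 are known activators of nuclear respiratory genes. The windows of 3 members that recur below are shown with every match in capitals: Cox6a1 (chr5:115348909-115349208, minus strand), in which overlapping matches on both strands make the first capital run, Cox8a (chr19:7217567-7217866, minus strand) and Uqcrh (chr4:116075021-116075320, minus strand).
Cox6a1: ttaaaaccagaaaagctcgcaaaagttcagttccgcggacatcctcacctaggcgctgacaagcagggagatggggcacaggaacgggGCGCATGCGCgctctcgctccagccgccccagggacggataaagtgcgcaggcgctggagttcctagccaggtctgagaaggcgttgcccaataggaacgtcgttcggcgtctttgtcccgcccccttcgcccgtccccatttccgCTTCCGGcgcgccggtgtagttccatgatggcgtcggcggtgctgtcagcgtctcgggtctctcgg
Cox8a: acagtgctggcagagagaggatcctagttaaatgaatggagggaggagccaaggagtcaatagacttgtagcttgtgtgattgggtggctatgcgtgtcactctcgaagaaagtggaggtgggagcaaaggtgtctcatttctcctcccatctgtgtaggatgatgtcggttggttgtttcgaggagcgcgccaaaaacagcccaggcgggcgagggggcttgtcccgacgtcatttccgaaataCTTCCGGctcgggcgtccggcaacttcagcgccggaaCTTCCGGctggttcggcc
Uqcrh: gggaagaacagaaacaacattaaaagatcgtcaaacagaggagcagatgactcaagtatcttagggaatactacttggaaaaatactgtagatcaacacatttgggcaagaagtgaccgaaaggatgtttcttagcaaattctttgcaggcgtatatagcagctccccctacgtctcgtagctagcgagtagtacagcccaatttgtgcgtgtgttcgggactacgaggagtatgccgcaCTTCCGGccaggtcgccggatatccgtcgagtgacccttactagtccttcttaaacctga

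All values are TPM, which is per length, so levels of genes within a library can be set side by side, and read depth was not given in the sources used here. Per library, 13024 to 17865 symbols were above 0. Over the 67 libraries, pooled from tables normalised apart, the highest means were those of mitochondrial members. mt-Nd1, a membrane subunit of complex I, had a mean of 9168 TPM, mt-Atp6, a subunit of the proton channel of complex V, 6749.9 TPM, and mt-Nd6, of complex I and the only one of these genes on the other strand, 437 TPM. In complex IV, Cox4i1, the ubiquitous regulatory subunit, averaged 766 TPM and Cox8a 583 TPM. The lowest there were Cox6b2, known as the testis form, at 3.05 TPM and Cox6a2, known as the heart and muscle form, at 29.0 TPM. The highest nuclear members of complex I were Ndufa3 (306 TPM) and Ndufa1 (271 TPM), both small accessory subunits, and the lowest Ndufb4c (7.54 TPM), annotated as a processed pseudogene, and Ndufs1 (54.2 TPM), which carries iron-sulfur clusters. In complex III, Uqcrc1 (267 TPM) and Uqcrh (257 TPM) were highest, and Uqcrc2 (92.8 TPM) and Uqcrfs1, the Rieske protein, (129 TPM) lowest. Complex V ran from Atp5k (92.7 TPM) and Atp5g3 (101 TPM) to Atp5g2 (407 TPM), of the membrane ring, and Atp5b (444 TPM), the catalytic subunit. Assembly factors of complex I ran from Ndufaf5 at 4.00 TPM and Ndufaf6 at 13.1 TPM to Ndufaf8 at 55.3 TPM and Ndufaf7 at 74.8 TPM. Taken within each table, the same 2 genes were highest in 6 of 6 tables for nuclear complex IV and the assembly factors, in 3 for complex V, 2 for complex III and 1 for complex I. The same 2 were lowest in 6 for complex IV, 5 for III, 4 for V, 3 for I and 1 for the assembly factors. In cuprizone, Atp5g2 (273 TPM) lay below Atp5c1 (280.3 TPM), for example.

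As a share of all TPM, the 84 nuclear members held 1.33% ± 0.02 (SD, n = 4) in cuprizone controls and 1.51% ± 0.13 (n = 3) in the GFP-positive libraries of that table, and the ranges did not overlap. In glioma the control share of 1.24% ± 0.04 (n = 4) stood against 1.82% ± 0.07 in GFP-negative and 2.08% ± 0.19 in GFP-positive libraries (n = 4 each), both above every control. Mitochondrial protein genes differed in that table: they held 3.08% ± 0.12 of TPM in controls and 2.61% ± 0.45 in GFP-positive libraries, whose values of 2.06% to 3.15% overlapped the controls. In EAE they held 2.25% ± 0.29 in controls and 3.86% ± 0.25 in GFP-positive libraries (n = 3 each), and in 5xFAD 2.11% ± 0.12 and 3.03% ± 0.15 (n = 4 each). In the P6 stroke the contralateral share was 5.61% ± 0.39 and the GFP-positive share 5.87% ± 0.75 (n = 4 each), within each other's spread. In the P28 stroke it was 2.08% ± 0.21 against 2.90% ± 0.15, with no overlap. These mitochondrial shares leave out the chromosome 1 copies. The copies held a mean of 0.72% of TPM in glioma controls and 0.78% in its GFP-positive libraries. In the P28 stroke they held 0.89% contralaterally and 1.27% in GFP-positive libraries. Summed shares were not tested, and in bulk samples fewer cells of a type and less RNA per cell cannot be told apart.

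**Figure D1:**
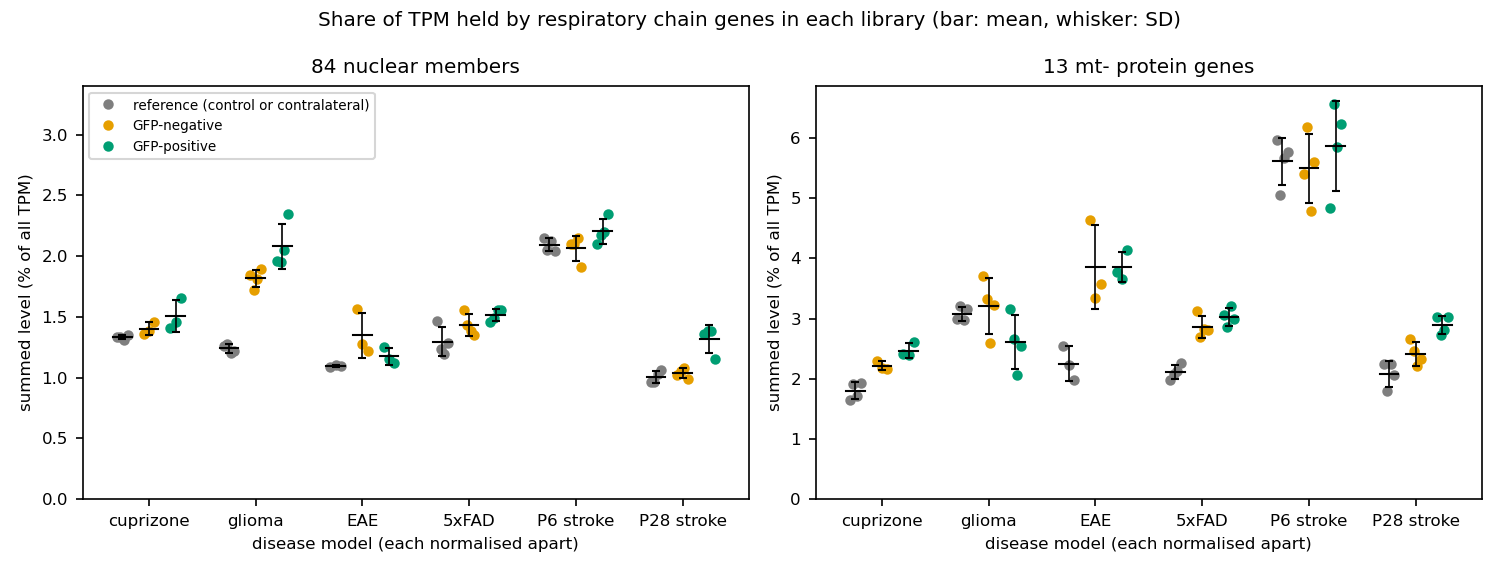
Share of all TPM (y axis, %) held by the 84 nuclear members (left) and the 13 mt- protein genes (right) in each of the 67 libraries; points are libraries, bars means and whiskers SDs, and each model was normalised apart. The nuclear share is higher in both glioma GFP groups than in its controls. The mt- share of glioma GFP-positive libraries spans 2.06% to 3.15% and overlaps the controls. Chromosome 1 copies are left out of the mt- shares.

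Each table was tested with limma on log2(TPM + 1) over all genes that passed a filter on low values, with Benjamini-Hochberg adjustment over all tested genes and a call at an adjusted p under 0.05; all folds and adjusted p below are from these fits, errors are SE, and all 11 mitochondrial and, but for Ndufb4c in the P6 stroke, all 84 nuclear members were tested. TPM is a share of a fixed total, so results are also given after median-of-ratios scaling, which sets the typical gene to no change. The scalings differed: the median log2 change of all genes between GFP-positive and reference libraries on the TPM scale was -0.29 in cuprizone, -0.51 in glioma, -0.41 in EAE, -0.57 in 5xFAD, -0.17 in the P6 stroke and -0.33 in the P28 stroke. A fall on the TPM scale may thus be none relative to the typical gene, so main counts are given on both scales.

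In the cuprizone model most members called higher on the TPM scale in GFP-positive cells than in wild type controls were of complex IV or mitochondrial. Of 84 nuclear members 13 rose and 4 fell, and of 11 mitochondrial members 9 rose and 0 fell (4.5% of all genes up and 13.7% down; 31 and 0 nuclear, 9 and 0 mitochondrial after rescaling). Complex IV gave 7 of the rises (11 after rescaling), Cox6a2 (2.41 ± 0.28, adjusted p = 6.7e-05), Cox4i1 (0.60 ± 0.09, adjusted p = 0.000581) and Cox8a (0.51 ± 0.08) among them. After rescaling complexes I, III and V gave 8, 4 and 8 rises. Uqcrh, the hinge protein of complex III, rose by 0.80 ± 0.17, and Atp5g3, a membrane ring gene of complex V, by 0.84 ± 0.22. The 4 that fell were Uqcrc2 (-0.40 ± 0.13) and the assembly factors Ndufaf2 (-0.92 ± 0.28), Ndufaf4 (-0.79 ± 0.26) and Ndufaf7 (-0.69 ± 0.13, adjusted p = 0.002), none of them called after rescaling. Without GFP-positive replicate 2 the total of 26 calls was 17, and without replicate 3 it was 12. Between GFP-positive and GFP-negative libraries, 4 nuclear members rose and 1 fell and no mitochondrial member was called (2.7% of all genes up and 7.49% down; 15 and 0 nuclear, 8 and 0 mitochondrial after rescaling). Cox6a2 (2.01 ± 0.30, adjusted p = 0.00102), Cox8a (0.44 ± 0.09), Cox4i1 (0.37 ± 0.10) and Atp5k (0.90 ± 0.25) rose, and Ndufaf7 fell (-0.57 ± 0.13; -0.28 and not called after rescaling). That total of 5 was 3 without GFP-negative replicate 1 or replicate 2 and 2 without GFP-positive replicate 3. Between GFP-negative and control libraries limma called no member on either scale, where 0.148% of all genes rose and 0.0155% fell. An unadjusted p under 0.05 was found for 18 members and for 1020 of all 12877 genes.

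In glioma most nuclear members were higher than in controls, while most called mitochondrial members were lower on the TPM scale but not after rescaling. Between GFP-positive and control libraries 58 of 84 nuclear members rose and 7 fell, and of 11 mitochondrial members 1 rose and 6 fell (17.7% of all genes up and 45.9% down; 76 and 2 nuclear, 3 and 1 mitochondrial after rescaling). By complex the nuclear rises were 24 of 37 in complex I, 5 of 8 in III, 12 of 14 in IV and 16 of 17 in V, and the median change was 0.47, 0.71, 1.20 and 0.90. After rescaling the rises were 34, 8, 12 and 17. Uqcrq, a small subunit of complex III, rose by 1.41 ± 0.10, adjusted p = 1.4e-07, Cox6b1 of complex IV by 1.24 ± 0.10 and Atp5md, which takes part in joining ATP synthase dimers, by 1.56 ± 0.12. In complex I, the accessory subunits Ndufv3 and Ndufa3 rose by 0.97 ± 0.10 and 0.91 ± 0.10. The core subunits Ndufs1 (-0.54 ± 0.14), Ndufv1 (-0.48 ± 0.11) and Ndufs8 (-0.30 ± 0.10) and Uqcrc1 of complex III (-0.25 ± 0.09) fell on the TPM scale, and each turned to a positive value after rescaling (0.06, 0.13, 0.30 and 0.36). Ndufaf7 (-1.40 ± 0.20, adjusted p = 5.57e-05) and Ndufaf4 (-1.09 ± 0.17), assembly factors of complex I, fell on both scales, whereas Ndufaf8 rose (0.91 ± 0.21).

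Between GFP-negative and control glioma libraries, a contrast that shares the controls with the one above, 51 nuclear members rose and 7 fell, and 1 mitochondrial member rose and 2 fell (16% of all genes up and 36.8% down; 67 and 1 nuclear, 3 and 0 mitochondrial after rescaling). Uqcrq (1.13 ± 0.10) and Cox5b (1.08 ± 0.11) were among the rises. Between GFP-positive and GFP-negative libraries 4 nuclear members rose, none fell, and 1 mitochondrial member fell (0.927% of all genes up and 5.75% down; 13 and 0 nuclear, 0 and 0 mitochondrial after rescaling). The rises were Ndufv3 (0.57 ± 0.10), Atp5j2 (0.58 ± 0.11) and Atp5j (0.38 ± 0.09) of complex V and the assembly factor Ndufaf2 (0.76 ± 0.21), and the fall was mt-Nd6 (-0.56 ± 0.14, adjusted p = 0.0304; -0.38 and not called after rescaling). This total of 5 ran from 2 to 9 as single libraries were left out: 2 without GFP-negative replicate 2, GFP-positive replicate 2 or GFP-positive replicate 4, 3 without GFP-negative replicate 4 or GFP-positive replicate 3, 8 without GFP-negative replicate 3 and 9 without GFP-positive replicate 1. Levels of cell type markers differed between the groups of this table. The summed level of 6 markers of monocyte-derived cells was 35.1 to 67.8 TPM in controls (5 of 6 at a mean of 1 TPM or more), 1834 to 4442 TPM in GFP-negative and 500.1 to 2107 TPM in GFP-positive libraries (6 of 6 in both). That of 10 microglia markers was 42225 to 48028, 8247 to 20236 and 5478 to 10367 TPM, and no defining one was at 0. All 8 markers of T and NK cells averaged 1 TPM or more in both GFP groups and none in controls, where Cd3e, Cd3d, Cd3g and Ncr1 were at 0. The part of these cells in the glioma results was not tested.

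In EAE most mitochondrial members rose in GFP-positive and in GFP-negative cells against the controls. The shares of nuclear members that rose or fell in GFP-positive cells were near those of all genes on the TPM scale. Between GFP-positive and control libraries 8 nuclear members rose and 14 fell and 9 mitochondrial members rose (6.91% of all genes up and 22.9% down; 18 and 0 nuclear, 9 and 0 mitochondrial after rescaling). Cox6a2 (3.11 ± 0.41, adjusted p = 0.000359), Ndufa1 (1.34 ± 0.21), Uqcrh (0.92 ± 0.19), Atp5mpl (0.75 ± 0.13), a small subunit of complex V, and Cox4i1 (0.66 ± 0.14) were among the rises. Of the 14 that fell on the TPM scale, 8 were in complex I, Ndufa9 (-0.65 ± 0.13), Ndufv1 (-0.61 ± 0.14) and Ndufc2 (-0.77 ± 0.17) among them, and 3 were assembly factors; none was called after rescaling. Without GFP-positive replicate 2 the total of 31 was 20. Between GFP-negative and control libraries 15 nuclear members rose and 4 fell and 7 mitochondrial members rose (5.88% of all genes up and 24.5% down; 35 and 0 nuclear, 9 and 0 mitochondrial after rescaling), with Cox6a2 at 3.62 ± 0.41, Cox8a at 0.74 ± 0.10, Uqcrh at 1.21 ± 0.19 and Atp5mpl at 0.82 ± 0.13. That total of 26 was 16 without control replicate 2 and 17 without control replicate 3. Between GFP-positive and GFP-negative libraries limma called no member on either scale, where 0.252% of all genes rose and 0.437% fell. An unadjusted p under 0.05 was found for 15 members and for 1464 of all 13513 genes. The markers of monocyte-derived cells summed to 8.44 to 9.16 TPM in controls (3 of 6), 57.3 to 115 TPM in GFP-negative (5 of 6) and 33.8 to 42.8 TPM in GFP-positive libraries (4 of 6), and their part in these values was not tested.

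In 5xFAD 7 of 14 nuclear complex IV members (13 after rescaling) and most mitochondrial members were higher in GFP-positive cells than in wild type. Between GFP-positive and control libraries 16 nuclear members rose and 12 fell and 9 mitochondrial members rose (6.11% of all genes up and 33.9% down; 53 and 0 nuclear, 10 and 0 mitochondrial after rescaling). Cox6a2 rose by 4.66 ± 0.40, adjusted p = 3.58e-07, Ndufa1 by 1.72 ± 0.15, adjusted p = 5.44e-07, Ndufc1 by 1.57 ± 0.28, Cox6a1 by 1.01 ± 0.16, Uqcr11 by 0.92 ± 0.15 and Atp5mpl by 0.80 ± 0.17. On the TPM scale Ndufa9 (-0.81 ± 0.14), Ndufs3 (-0.66 ± 0.13), Uqcrc1 (-0.62 ± 0.10), Atp5a1 (-0.39 ± 0.11), Atp5pb (-0.48 ± 0.11), Ndufaf3 (-1.27 ± 0.30) and Ndufaf7 (-0.86 ± 0.25) were among the 12 that fell. After rescaling none of the 12 was called, and Ndufs3, Uqcrc1, Atp5a1 and Atp5pb stood at 0.03, 0.08, 0.30 and 0.21. Between GFP-positive and GFP-negative libraries 3 nuclear members rose and none fell (1.02% of all genes up and 7.14% down; 16 and 0 nuclear, 7 and 0 mitochondrial after rescaling): Ndufa1 (0.67 ± 0.15, adjusted p = 0.013), Cox4i1 (0.30 ± 0.09, adjusted p = 0.0486) and Cox6a2 (1.35 ± 0.40, adjusted p = 0.0489). The count of 3 became 1 without control replicate 2, any of GFP-negative replicates 2, 3 and 4 or any of GFP-positive replicates 1, 2 and 3, and 5 without control replicate 1. Between GFP-negative and control libraries 11 nuclear members rose and 4 fell and 6 mitochondrial members rose (3.57% of all genes up and 9.12% down; 25 and 0 nuclear, 9 and 0 mitochondrial after rescaling), with Cox6a2 at 3.31 ± 0.40, Ndufc1 at 1.45 ± 0.28 and Ndufa1 at 1.05 ± 0.15.

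In the P6 stroke limma called 1 member in the 3 contrasts. Ndufb9, an accessory subunit of complex I, was at 194, 205, 212 and 259.8 TPM on the contralateral side and 256, 300.4, 310.1 and 316 TPM in GFP-positive libraries, and rose by 0.44 ± 0.10, adjusted p = 0.0302 (0.556% of all genes up and 2.56% down; 1 and 0 nuclear, 0 and 0 mitochondrial after rescaling). That call was lost in 6 of 12 fits with a library left out, among them those without contralateral replicate 2, 3 or 4 or GFP-positive replicate 3 or 4, which called no member, while 2 members were called without GFP-negative replicate 3 and 5 without GFP-positive replicate 1. Between GFP-positive and GFP-negative libraries limma called no member (1.03% of all genes rose and 2.33% fell), and rescaling gave 2 rises. An unadjusted p under 0.05 was found for 17 members and for 2897 of all 13136 genes. On the TPM scale limma called 1 member without GFP-negative replicate 3 and 5 without GFP-positive replicate 1. Between GFP-negative and contralateral libraries limma called none on either scale (0.0914% up and 0.183% down). There 9 members and 1051 of all 13136 genes had an unadjusted p under 0.05. Of 6 neutrophil markers all were at 0 contralaterally, and their sum was 47.0 to 376 TPM in GFP-negative (3 of 6 at 1 TPM or more, Ly6g at 0) and 0.170 to 30.4 TPM in GFP-positive libraries (3 of 6, Ly6g and Ngp at 0); their part was not tested.

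In the P28 stroke the GFP-positive cells differed from both other groups. Against GFP-negative cells of the stroke cortex 28 nuclear members rose and 2 fell and 3 mitochondrial members rose (5.86% of all genes up and 23.2% down; 54 and 0 nuclear, 8 and 0 mitochondrial after rescaling). Rises were 9 of 37 in complex I, 4 of 8 in III, 9 of 14 in IV and 6 of 17 in V. They were 21, 6, 11 and 16 after rescaling. Among them were Ndufa1 (1.17 ± 0.15, adjusted p = 0.000116), Uqcrh (0.59 ± 0.11), Uqcr10 (0.87 ± 0.19), Cox8a (0.65 ± 0.09, adjusted p = 0.000163), Cox6c (0.74 ± 0.11), Atp5mpl (0.95 ± 0.14) and Atp5g2 (0.44 ± 0.08). Uqcrc1 (-0.31 ± 0.10) and Ndufaf7 (-0.62 ± 0.15) fell on the TPM scale, neither of them called after rescaling, which put them at 0.02 and -0.29. The total of 33 was 20 without GFP-positive replicate 2. Against the contralateral side 30 nuclear members rose and 5 fell and 8 mitochondrial members rose (7.56% of all genes up and 28.4% down; 58 and 0 nuclear, 9 and 0 mitochondrial after rescaling), with Cox8a at 0.84 ± 0.09, adjusted p = 1.08e-05, Ndufa1 at 1.37 ± 0.15, Atp5g2 at 0.75 ± 0.08 and Cox4i1 at 0.75 ± 0.09. Between GFP-negative and contralateral libraries limma called no member on either scale (0.217% up and 0.021% down). An unadjusted p under 0.05 was found for 11 members and for 1216 of all 14303 genes. Markers of monocyte-derived cells summed to 6.85 to 11.3 TPM contralaterally (3 of 6), 9.23 to 17.6 TPM in GFP-negative (3 of 6) and 27.4 to 70.5 TPM in GFP-positive libraries (5 of 6), and their part was not tested.

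**Figure D2:**
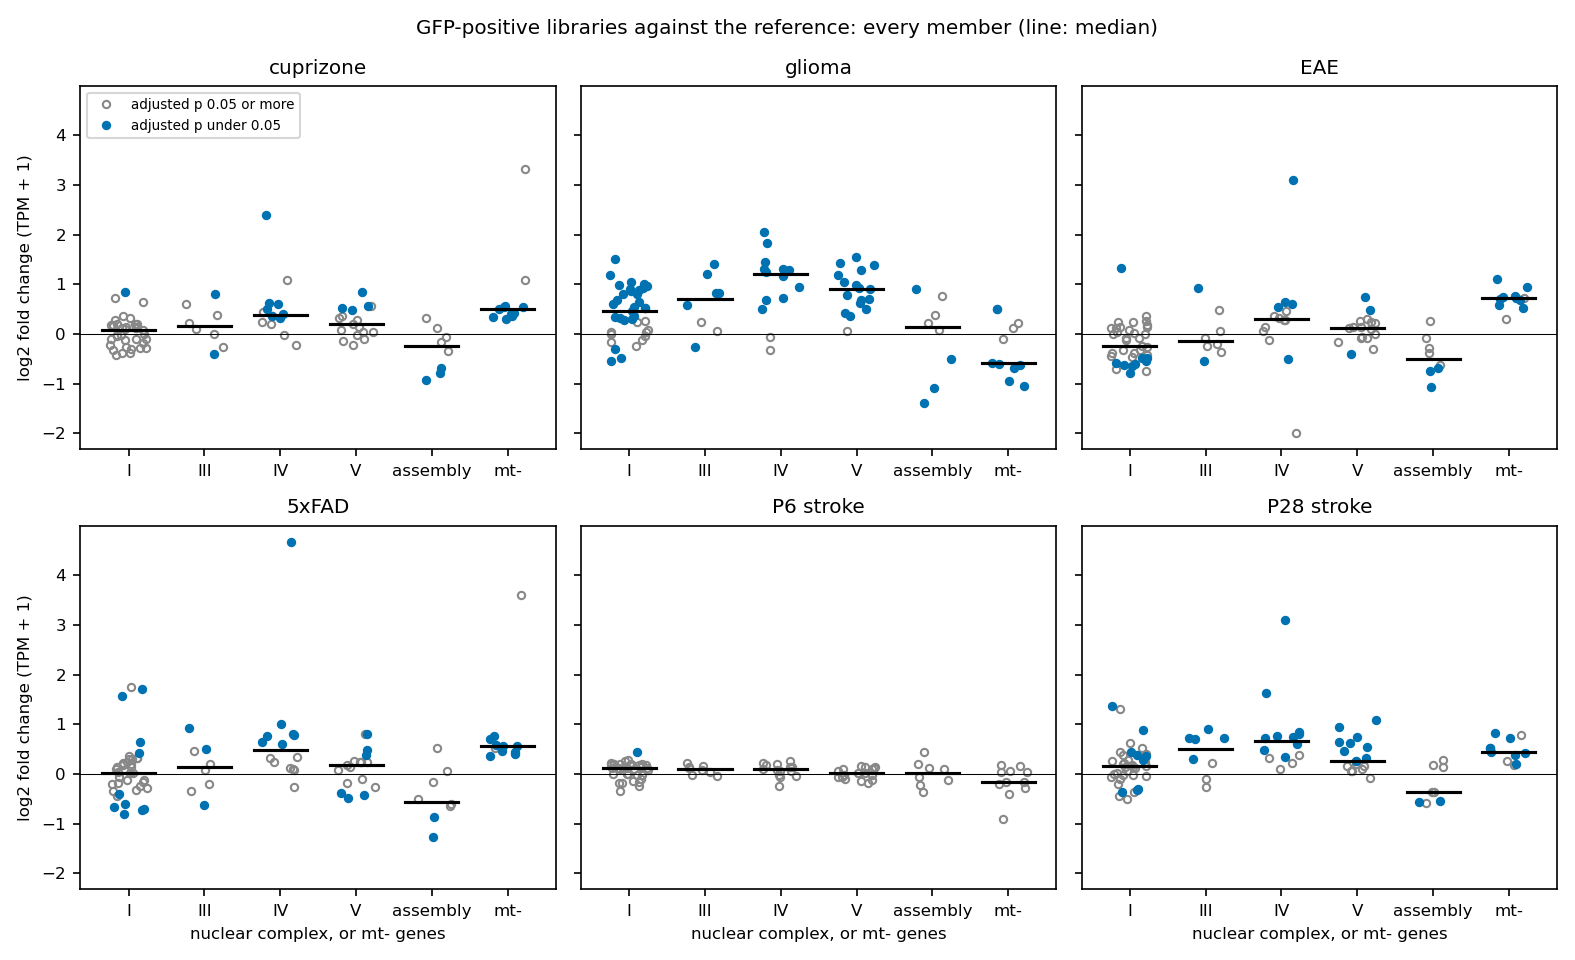
Log2 fold change on the TPM + 1 scale (y axis) between GFP-positive and reference libraries for every member, by nuclear complex, assembly factor or mt- genes (x axis); filled points have an adjusted p under 0.05 and lines are medians. Complex IV has the highest nuclear median in glioma (1.20), and the median of the mt- genes lies below 0 there and above 0 in cuprizone, EAE, 5xFAD and the P28 stroke.

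Cox6a2 had the largest called rise of all members in each of the 5 tables where it was called against the reference. The gene lies at chr7:128205435-128206387 (GRCm38, minus strand), and its product takes the place of that of Cox6a1 in complex IV of heart and skeletal muscle. In 5xFAD its level was 1.69, 5.03, 7.31 and 16.8 TPM in controls, 56.5, 62.2, 64.1 and 98.0 TPM in GFP-negative and 162, 163, 175 and 210.2 TPM in GFP-positive libraries, so that no group overlapped another. In cuprizone it was 6.31, 7.08, 7.19 and 14.9 TPM in controls, 9.07, 11.6 and 13.6 in GFP-negative and 47.3, 48.6 and 49.9 in GFP-positive libraries. Here the GFP-positive libraries stood apart and the other groups overlapped. In the P28 stroke it was 0.940, 2.95, 3.41 and 3.63 TPM on the contralateral side, 1.77, 3.02, 7.26 and 7.43 in GFP-negative and 16.9, 25.6, 35.04 and 47.7 in GFP-positive libraries, the last again apart. In EAE both GFP groups were high, at 61.9, 70.3 and 71.5 TPM (GFP-negative) and 41.2, 43.9 and 58.4 TPM (GFP-positive) against 2.73, 2.74 and 11.6 TPM in controls. In glioma the GFP-positive libraries held 8.12, 9.90, 11.1 and 41.3 TPM and the controls 0, 1.98, 6.34 and 6.88, a call at 2.05 ± 0.65, adjusted p = 0.014, with GFP-positive replicate 1 the high value. In the P6 stroke no library passed 6.35 TPM. Cox6a1 was above Cox6a2 in every library, and its own changes against the reference were 0.36 ± 0.11 in cuprizone, 0.69 ± 0.10 in glioma, 1.01 ± 0.16 in 5xFAD and 0.61 ± 0.12 in the P28 stroke. The call of Cox6a2 between the GFP groups of 5xFAD was lost in 10 of 12 fits with a library left out (adjusted p up to 0.123).

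**Figure D3:**
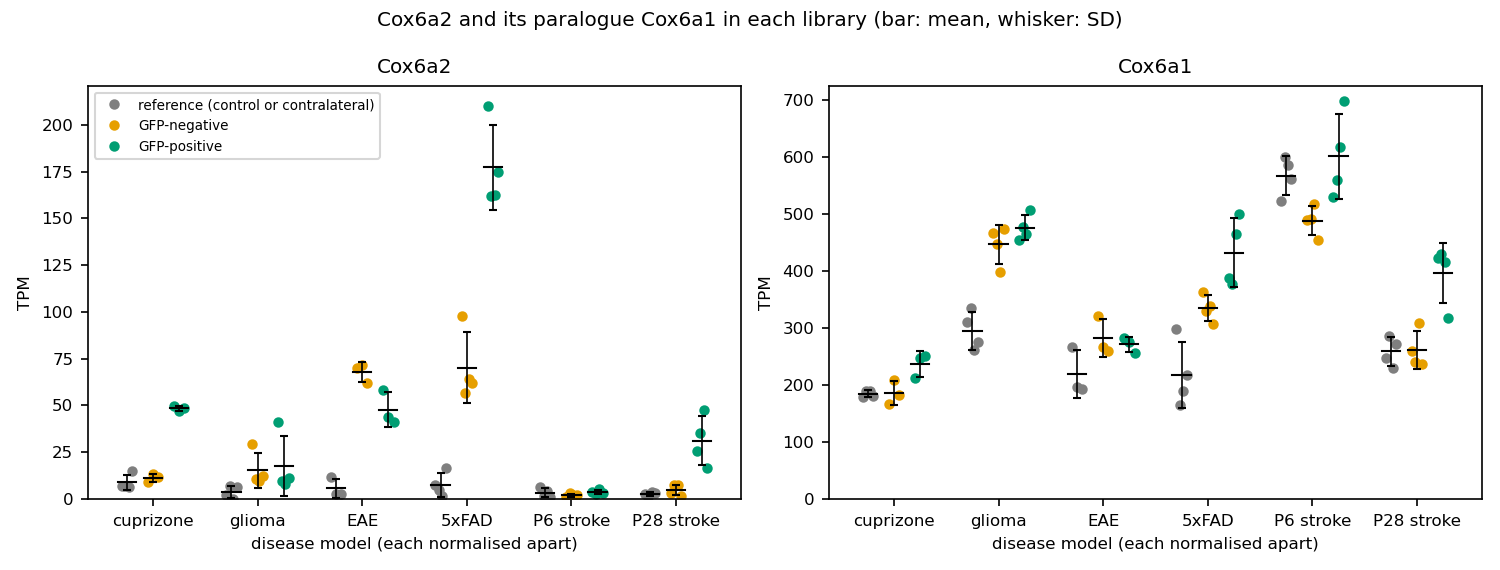
TPM (y axis) of Cox6a2 (left) and Cox6a1 (right) in each library by model, with means as bars and SDs as whiskers. Cox6a2 reaches 162 to 210.2 TPM in GFP-positive 5xFAD libraries and stays at 6.35 TPM or less in the P6 stroke.

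Other paralogues of complex IV and of the ATP synthase ring were called in different tables. Cox6b2 was at 0, 0, 1.41 and 3.29 TPM contralaterally and 3.41, 3.85, 4.10 and 7.82 TPM in GFP-positive libraries of the P28 stroke, low in both, and was called there (1.64 ± 0.44, adjusted p = 0.0105) and in no other table. Cox6b1 rose against the reference in glioma, in 5xFAD (0.64 ± 0.11) and in the P28 stroke (0.48 ± 0.16). Cox7a2l, a factor of supercomplexes, rose in 5 of the 6 contrasts with the reference, by 0.32 to 0.76, while Cox7a2 was called in glioma (1.17 ± 0.12) and in no other table on the TPM scale. Ndufa4, now counted to complex IV, fell in EAE (-0.51 ± 0.14; -0.04 and not called after rescaling). The genes Atp5g1, Atp5g2 and Atp5g3 encode the same mature ring protein. Atp5g2 rose in glioma (0.79 ± 0.12), EAE (0.50 ± 0.16), 5xFAD (0.37 ± 0.12) and the P28 stroke (0.75 ± 0.08), Atp5g3 in cuprizone, glioma (0.98 ± 0.16) and the P28 stroke (0.32 ± 0.11), and Atp5g1 in glioma (0.90 ± 0.11). Whether paralogues differ from each other was not tested.

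Against the reference, 8 members rose in 5 of the 6 models, on both scales, and none in all 6: Cox4i1, Cox6a2, Cox7a2l and Cox8a of complex IV, Ndufa1, Uqcrh, Atp5mpl and mt-Co1. They were 8.51% of the 94 members tested in every table, where 2.08% of all 11301 such genes rose in 5 or more models on both scales. The exception was the P6 stroke for each of them. For mt-Co1 these calls are without its partial copy on chromosome 1, so they carry the uncertainty described above. Ndufa1, needed for the membrane arm of complex I, was at 171, 188, 192 and 272 TPM in 5xFAD controls, 335, 385, 464 and 520.1 in GFP-negative and 626, 632, 669 and 758 in GFP-positive libraries, with no overlap between groups. In the P28 stroke it was at 98.2, 113, 123 and 146 TPM contralaterally, 119.7, 131, 142 and 156 in GFP-negative and 233, 316, 345 and 360.0 in GFP-positive libraries, which stood above all others. In the P6 stroke it was at 259.7 to 300.1 TPM contralaterally and 259 to 308 TPM in GFP-positive libraries. Cox8a, a small subunit of complex IV, held 359, 363, 371 and 390.3 TPM in glioma controls and 825, 839, 968 and 1064 TPM in GFP-positive libraries. Uqcrh held 183, 186, 186 and 189 TPM against 312, 324, 333 and 363 TPM, and neither gene's groups overlapped. Between the GFP groups no member was called in 4 or more models in 1 direction, and Cox4i1 and Cox6a2 reached 3.

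Falls recurred in fewer members: 1, Ndufaf7, fell in 5 models on the TPM scale, where 7.08% of all genes fell in 5 or more. Ndufaf7 is a methyltransferase needed for complex I assembly, and it fell on both scales in 1 model, glioma. Its levels in glioma were 59.1, 74.5, 90.0 and 107 TPM in controls and 26.7, 26.9, 33.3 and 33.9 in GFP-positive libraries, with no overlap. In cuprizone they were 119.6, 128, 135 and 159 TPM in controls and 79.2, 85.2 and 85.2 in GFP-positive libraries, also apart. Ndufaf4 fell in 4 models, in 1 of them on both scales. The core subunit Ndufs8 fell in 4 and Ndufa9, Ndufv1 and Uqcrc1 in 3 contrasts with the reference, and none of these 4 was called down in any table after rescaling.

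Within complex I, core subunits had lower median changes than accessory ones, a difference that was not tested. The 6 nuclear core subunits compared here (Ndufs1, Ndufs3, Ndufs7, Ndufs8, Ndufv1 and Ndufv2, a grouping taken up after the values were seen) belong to the arm that passes electrons from NADH to ubiquinone. Between GFP-positive and reference libraries of 5xFAD 0 of 6 rose and 5 fell, with a median of -0.63, while of 29 accessory subunits (Ndufb4c left out) 4 rose and 1 fell, with a median of 0.13. In glioma 2 of 6 core subunits rose and 3 fell (median -0.21), against 22 of 29 rises and 0 falls (median 0.62). Of all genes 6.11% rose and 33.9% fell in 5xFAD (median -0.57), and 17.7% rose and 45.9% fell in glioma (median -0.51). The core and accessory medians were -0.15 and 0.23 in the P28 stroke, -0.45 and 0.00 in EAE, -0.34 and 0.12 in cuprizone and -0.01 and 0.13 in the P6 stroke. Medians of all genes in these tables were -0.33, -0.41, -0.29 and -0.17. After rescaling the core and accessory medians were 0.06 and 0.82 in 5xFAD and 0.40 and 1.22 in glioma, and none of these core subunits fell in any table. Transcript length moved with this. Length here is the median over a gene's annotated transcripts and may differ from that of the form these cells express. Uqcrc1 and Ndufs1 were listed at 533 and 651 bases by this measure, and Ndufb2 and Atp5g1 at 2413 and 2675.5 bases. Across 83 nuclear members the Spearman correlation of length with the log2 change between GFP-positive and reference libraries was -0.59 in the P28 stroke, -0.47 in 5xFAD, -0.46 in glioma, -0.40 in cuprizone, -0.38 in EAE and -0.15 in the P6 stroke. Over all tested genes with a length it was -0.20, -0.15, -0.17, -0.11, -0.09 and -0.24 in the same order. These genes share libraries and TPM is itself divided by length, so the correlations are descriptions, and the part of length in the results was not tested. In the P28 stroke the 28 shortest members (up to 571.3 bases) had a median change of 0.53 and the 28 longest (over 872.2 bases) -0.04, where all genes within the same limits had -0.02 and -0.34.

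**Figure D4:**
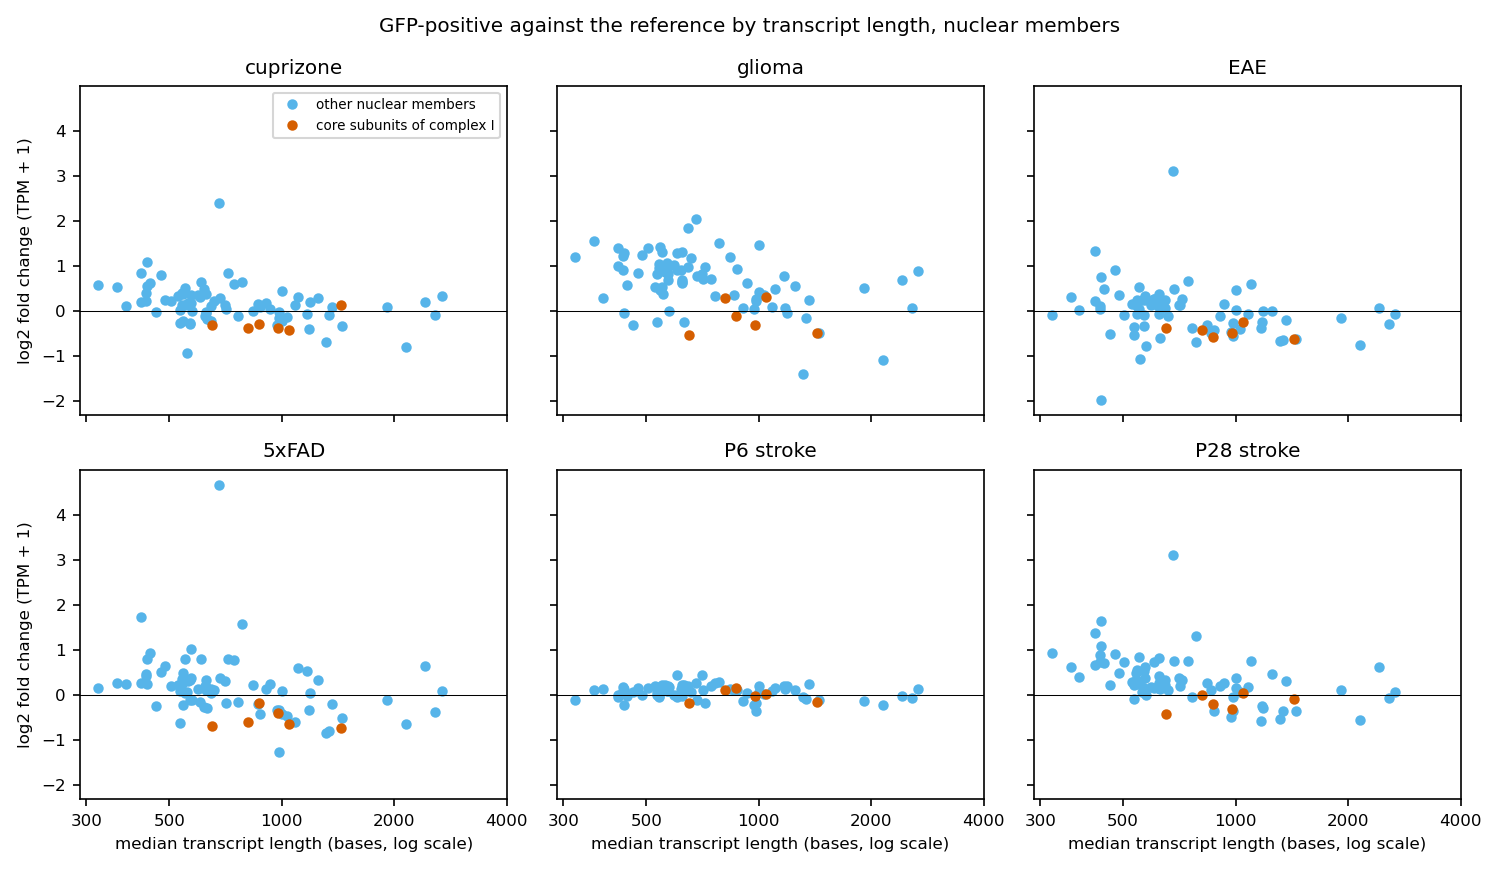
Log2 fold change on the TPM + 1 scale between GFP-positive and reference libraries (y axis) by transcript length (x axis) of nuclear members. Length is the median over a gene's annotated transcripts, in bases on a log scale. Each panel is a model, each point is a gene and orange points are the 6 named core subunits of complex I. In the 5xFAD panel the core subunits lie below 0 with a median of -0.63 (all tested genes, not drawn, -0.57), and in the P28 stroke the shorter transcripts lie higher than the longer ones.

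Mitochondrial members rose together in 4 models. Against the reference, 9 of 11 rose in cuprizone, 9 in EAE, 9 in 5xFAD and 8 in the P28 stroke, with none falling on either scale. mt-Co1, the catalytic subunit of complex IV, was at 1375, 1402 and 1759.8 TPM in EAE controls and 3081, 3281 and 3353 TPM in GFP-positive libraries, with every GFP-positive library above the controls. It rose by 0.56 ± 0.07 in cuprizone, 1.11 ± 0.12 in EAE, 0.71 ± 0.10 in 5xFAD and 0.73 ± 0.08 in the P28 stroke (adjusted p of 0.000112, 7.98e-05, 3.47e-05 and 1.44e-05). mt-Atp6 rose by 0.51 ± 0.11, 0.95 ± 0.19, 0.76 ± 0.07 and 0.82 ± 0.14 in the same 4 models. Cytochrome b, the gene mt-Cytb, is the only subunit of complex III made in the organelle, and it rose by 0.43 ± 0.08, 0.76 ± 0.19, 0.56 ± 0.09 and 0.52 ± 0.08. mt-Nd1 rose by 0.37 ± 0.07, 0.69 ± 0.14, 0.36 ± 0.06 and 0.38 ± 0.13, and mt-Nd4 by 0.31 ± 0.08, 0.76 ± 0.13, 0.45 ± 0.09 and 0.42 ± 0.11. Both encode proton-pumping membrane subunits of complex I. mt-Atp6 and mt-Nd4 have identical copies on chromosome 1, and with these added mt-Atp6 rose by 0.55 ± 0.07, 0.90 ± 0.14, 0.66 ± 0.07 and 0.65 ± 0.08, and mt-Nd4 by 0.32 ± 0.08, 0.76 ± 0.13, 0.45 ± 0.09 and 0.42 ± 0.11. The changes of mt-Co1 above are without its partial copy on chromosome 1, and its value with that copy added is given below for glioma only. In the P6 stroke none of the 11 was called, and mt-Co1 was at 3542 to 4153 TPM contralaterally and 3693 to 4141 TPM in GFP-positive libraries.

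In glioma the called mitochondrial subunits of complexes I and III fell on the TPM scale and the called one of complex IV rose. mt-Nd6 was at 514, 518, 577 and 622 TPM in controls, 309, 424, 429.8 and 443 in GFP-negative and 229, 246, 280.2 and 329 in GFP-positive libraries, overlapping only between the GFP groups. mt-Nd5 was at 1526, 1577, 1602 and 1697 TPM in controls and 645, 821, 860.1 and 1019.9 TPM in GFP-positive libraries, with no overlap. mt-Co1 was higher within the same libraries, at 1962, 2164, 2173 and 2195 TPM in controls and 2553, 2911, 3165 and 3459 TPM in GFP-positive ones. Between these groups mt-Nd6 (-1.05 ± 0.14, adjusted p = 2.94e-05), mt-Nd5 (-0.95 ± 0.16), mt-Nd4 (-0.67 ± 0.15), mt-Nd2 (-0.61 ± 0.15), mt-Nd1 (-0.60 ± 0.19) and mt-Cytb (-0.59 ± 0.15) fell, while mt-Co1 rose (0.50 ± 0.11). After rescaling mt-Nd6 was the one that still fell (-0.44), mt-Cytb and mt-Nd1 turned to 0.03 and 0.01, and mt-Co1 stood at 1.11. With the chromosome 1 copies added, mt-Nd4l (-0.68 ± 0.15) and mt-Nd3 (-0.60 ± 0.17) were also called down and mt-Co1 up (0.58 ± 0.11), while mt-Co2 (-0.01 ± 0.11), mt-Co3 (-0.04 ± 0.15) and mt-Atp6 (0.04 ± 0.13) were not called. Of the mitochondrial ribosomal RNAs mt-Rnr1 (0.68) and mt-Rnr2 (0.34), both rose in these libraries too, as 2 did in 5xFAD, 2 in the P28 stroke, 1 in EAE and 0 in cuprizone.

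**Figure D5:**
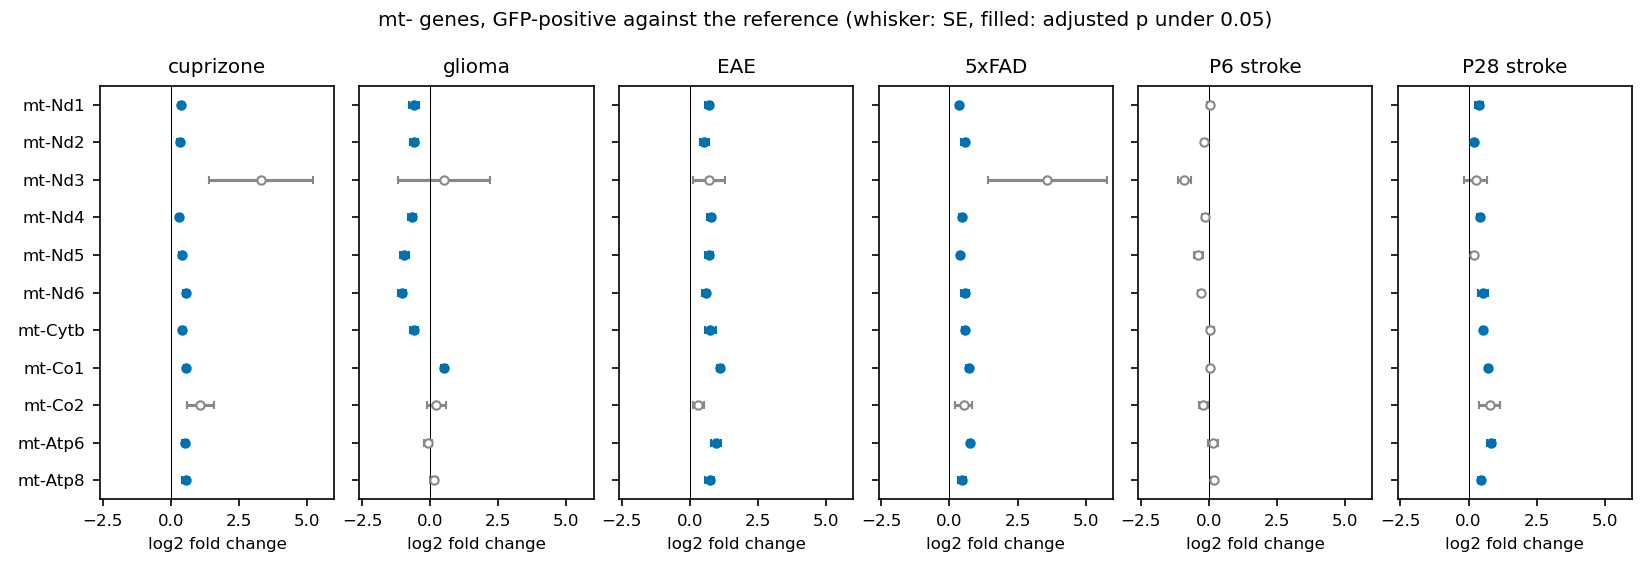
Log2 fold change (x axis) between GFP-positive and reference libraries for the 11 mt- members (y axis) in each model, with SE whiskers and filled points at an adjusted p under 0.05. mt-Nd1, mt-Nd2, mt-Nd4, mt-Nd5, mt-Nd6 and mt-Cytb lie below 0 in glioma and mt-Co1 above 0, and mt-Nd3 and mt-Co2, which have near-identical or identical nuclear copies, have wide whiskers.

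Differences between models were tested directly in a fit of all 6 tables over the 11301 genes, 94 members among them, that were tested in each. The contrast of GFP-positive with GFP-negative cells differed between models for 32 members, against 19.6% of all genes (28 members where each table kept its own spread and 48 after rescaling). That contrast in the P28 stroke minus the same in the P6 stroke was higher for 15 members (4.59% of all genes) and lower for 2 (7.22%), and gave 14 calls in all with each table's own spread; after rescaling 24 nuclear and 3 mitochondrial members were higher and 1 was lower. Ndufa1 differed by 1.35 ± 0.20, adjusted p = 2.51e-06, Atp5mpl by 0.86 ± 0.19, Uqcrh by 0.65 ± 0.15, Cox6a2 by 1.85 ± 0.58, adjusted p = 0.0263 and mt-Co1 by 0.55 ± 0.10, and the lower 2 were Uqcrc1 (-0.42 ± 0.10) and the assembly factor Ndufaf1 (-1.06 ± 0.27), of which Uqcrc1 was not called after rescaling (adjusted p = 0.371). Without P28 GFP-positive replicate 4 the total of 17 was 27. In a comparison added after the values were seen, the change between GFP-positive and reference libraries in glioma, minus the mean of the other 5 models, was higher for 50 nuclear members and lower for 2, and lower for 8 mitochondrial members and higher for none (15.1% of all genes up and 28.2% down; 60 and 1 nuclear, 0 and 7 mitochondrial after rescaling). Cox5a, a nuclear subunit of complex IV singled out after its value was seen, differed by 1.75 ± 0.16, adjusted p = 9.99e-14, and mt-Nd6 by -1.44 ± 0.16. Ndufa1 (-0.07 ± 0.19) and Cox6a2 (-0.65 ± 0.53) were not called in it.

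Genes that serve the chain were followed as lists by the same calls, and each count reads against the share of all genes given above for the contrast (45.9% down in glioma, 33.9% in 5xFAD, 28.4% in the P28 stroke, 22.9% in EAE and 13.7% in cuprizone). Of 16 tested genes that copy or transcribe mitochondrial DNA, none rose against the reference on the TPM scale and 1 did so in glioma after rescaling. On the TPM scale 12 fell in glioma, 11 in 5xFAD, 6 in the P28 stroke, 4 in EAE and 2 each in cuprizone and the P6 stroke; after rescaling 7, 2, 1, 2, 0 and 0 fell. Ssbp1, which coats single-stranded mitochondrial DNA, changed by -1.40 in glioma (-0.80 after rescaling), and Polrmt, the mitochondrial RNA polymerase, by -1.28 there and -1.82 in 5xFAD (-0.70 and -1.19 after rescaling). Of the 13 TCA cycle genes, 8 fell in 5xFAD, 5 in EAE, 4 in glioma with 2 rises, 2 in the P28 stroke, 1 in cuprizone and none in the P6 stroke. After rescaling 7 rose and 1 fell in glioma and none fell elsewhere. Idh3g, a subunit of isocitrate dehydrogenase, was down in 5 tables on the TPM scale (-1.16 in glioma, -1.01 in 5xFAD, -0.89 in EAE, -0.68 in cuprizone and -0.50 in the P28 stroke) and was the 1 that still fell in glioma. Complex II, which has 4 nuclear subunits, gave 3 rises and 1 fall in glioma (Sdhd 0.57, Sdhc 0.49, Sdhb 0.41 and Sdha -0.55) and 2 falls in 5xFAD, no fall being called after rescaling. Of 8 genes of cytochrome c and membrane carriers, 4 rose in glioma (8 after rescaling; 17.7% of all genes rose on the TPM scale), Cycs, cytochrome c itself, by 1.31. On the TPM scale 1 rose and 3 fell in 5xFAD, 1 rose and 2 fell in EAE, 1 fell in cuprizone and 1 rose in the P28 stroke. After rescaling 4, 3, 3 and 4 rose and none fell. Slc25a3, the phosphate carrier, rose in glioma (0.40), EAE (0.31), 5xFAD (0.25) and the P28 stroke (0.39). Of 27 assembly factors of complexes III to V, 11 fell and 4 rose in glioma (2 and 9 after rescaling) and 7 fell and 1 rose in 5xFAD (1 and 1), shares of falls below those of all genes in both tables. Tmem70, needed for complex V, changed by -0.87 and -1.25 in these tables (-0.27 and -0.57 after rescaling). Of 8 complex I assembly factors outside the Ndufaf names, 5 fell in glioma and 5 in 5xFAD (1 and 0 after rescaling). Among 7 regulators of mitochondrial biogenesis tested in glioma 6 fell and 1 rose (1 and 1 after rescaling), Yy1 changing by -1.36 (-0.82 after rescaling) and Ppargc1b by 1.05. Atpif1, the inhibitor of complex V, fell in EAE (-0.44; 0.03 after rescaling).

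All 10 microglia markers averaged at least 1 TPM in each of the 18 groups, and no group lacked a defining one. Their summed level was 54359 to 59676 TPM in cuprizone controls and 28307 to 33888 TPM in GFP-positive libraries, 46024 to 50315 and 25169 to 28597 TPM in 5xFAD, 47179 to 48842 and 20512 to 21676 TPM in EAE, 39248 to 45262 and 25589.7 to 32027 TPM in the P28 stroke and 26491 to 30158 and 24361 to 28555 TPM in the P6 stroke. The GFP-positive sum was thus below every reference library in cuprizone, 5xFAD, EAE, the P28 stroke and glioma and overlapped the reference in the P6 stroke, and the part of this in the results was not tested. Other lists moved with the groups as well, and their part was not tested. Endothelial markers of the P28 stroke summed to 31.4 to 38.3 TPM contralaterally, 25.3 to 33.3 TPM in GFP-negative and 5.11 to 12.9 TPM in GFP-positive libraries. Astrocyte markers there summed to 99.9 to 122, 93.2 to 118 and 63.2 to 87.8 TPM. Endothelial sums in reference and GFP-positive libraries were 16.9 to 28.6 and 5.81 to 9.78 TPM in cuprizone, 18.4 to 21.6 and 3.58 to 4.96 TPM in EAE and 19.9 to 30.6 and 6.95 to 8.39 TPM in 5xFAD, apart in each. Astrocyte sums were also apart in cuprizone (152 to 173 and 95.1 to 133 TPM). Oligodendrocyte sums were apart in cuprizone (115 to 137 and 88.7 to 108 TPM), EAE (129 to 178 and 92.2 to 121 TPM) and 5xFAD (125 to 176 and 81.5 to 109 TPM). T and NK cell markers summed to 0 to 2.05 and 1.87 to 5.67 TPM in 5xFAD and to 0 to 3.0 and 4.68 to 8.15 TPM in cuprizone. They summed to 0 to 0.420 TPM in EAE controls against 1.00 to 23.8 TPM in GFP-negative and 1.13 to 2.93 TPM in GFP-positive libraries. Outside glioma, neuron markers reached 8.61 TPM in a single library, erythroid markers 787 TPM (EAE controls) and choroid plexus markers 315 TPM (5xFAD controls). In glioma, choroid plexus markers summed to 152 to 1883 TPM in controls. They summed to 5.22 to 51.2 TPM in GFP-negative and 10.9 to 54.1 TPM in GFP-positive libraries, apart from the controls. Astrocyte markers there summed to 123 to 169, 58.8 to 91.5 and 51.8 to 61.4 TPM in the same order. Erythroid markers reached 1368, 1733 and 890 TPM in these groups. Dendritic cell markers summed to 21.3 to 76.4 TPM in glioma controls, 112 to 225 TPM in GFP-negative and 7.76 to 52.4 TPM in GFP-positive libraries, and endothelial markers to 19.3 to 581, 30.1 to 225 and 42.0 to 327 TPM. In 5xFAD dendritic markers summed to 18.5 to 78.2 TPM in controls and 2.30 to 5.88 TPM in GFP-positive libraries, and monocyte markers to 28.6 to 68.1 and 13.9 to 17.5 TPM. In cuprizone the same lists summed to 30.4 to 58.5 and 6.29 to 9.88 TPM and to 7.24 to 21.8 and 17.0 to 21.4 TPM.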

How the data were processed

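The study isolated brain cells with Percoll and flow sorting and made bulk RNA libraries, 67 of the 71 samples here; 4 hashed single-cell pools were not analysed here, and values of 1 item are not reported here. The deposited tables hold TPM, which the authors computed per model, and the submitters' processing notes name cutadapt 2.10, STAR 2.7.5c, RSEM 1.3.3 and the builds GRCm38 and mm10. Depth per library is unknown, and counting intervals cannot be given. Groups come from the sample labels, and no library pair was identical.

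In R 4.3.3, limma 3.58.1 (trend) was fitted to log2(TPM + 1), per table with its 3 groups, over genes that reached 1 TPM in 3 libraries (cuprizone, EAE) or 4, the size of the smallest group, and adjusted by Benjamini-Hochberg over all tested genes. The script was tested on simulated data. Differences between models came from 1 fit of the 18 groups with a weight per table. Alternatives were median-of-ratios scaling, totals without mt- genes, a pseudocount of 0.1, no filter, a replicate block, a sex term in cuprizone, no table weights, each replicate left out and, added after seeing the data, chromosome 1 copies added, each table's own spread and the glioma comparison. Copies were aligned with BLAST 2.17.0.

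The genes named are the 13 mt- genes, up to 3 members per complex, contrast and direction with the smallest adjusted p under 0.05, the 2 highest and 2 lowest of each complex, the listed paralogues, members called in 4 or more of the contrasts between GFP groups, and up to 3 called genes per list. The members, the lists and this rule were chosen with earlier results of these data known.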

Additional observations from a re-analysis of the deposited data

Results flagged for a closer look

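Of 195 sets of 4 libraries examined, 18 held a library far from the other 3; chance gives about 1 in 20. In the cuprizone controls these were Cox6a2 at 14.9 TPM in replicate 4, Uqcrh at 150.3 TPM in replicate 3, mt-Nd1 at 6865 TPM in replicate 1 and mt-Nd4l at 155 TPM in replicate 4. In the glioma controls they were Cox4i1 at 489.9 TPM and mt-Co1 at 1962 TPM in replicate 3, and mt-Co3 at 359 TPM in replicate 2. Among the other glioma libraries they were Cox6a2 at 29.3 TPM in GFP-negative replicate 1 and at 41.3 TPM in GFP-positive replicate 1, and mt-Nd6 at 309 TPM in GFP-negative replicate 3. In 5xFAD, GFP-positive replicate 1 stood apart with Ndufaf7 at 33.5 TPM and mt-Co3 at 339.9 TPM. In the P28 stroke, mt-Cytb was at 1984 TPM in contralateral replicate 2, mt-Co3 at 394 TPM in GFP-negative replicate 2 and mt-Nd4l at 104 TPM in GFP-negative replicate 1. There GFP-positive replicate 4 stood apart with mt-Co3 at 728 TPM, mt-Nd4l at 131 TPM and the nuclear members at 1.15% of all TPM. Of the 18 values, 7 belong to mt-Co3 and mt-Nd4l, which have base-identical nuclear copies.

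The change from GFP-negative to GFP-positive libraries differed between the P28 and the P6 stroke (limma, P28 minus P6, log2 scale, adjusted p under 0.05) for 17 members. Of all genes 4.59% were higher and 7.22% lower. The difference was 1.35 for Ndufa1, 0.84 for Ndufa3 and 0.40 for Ndufa6 of complex I. In complex III it was 0.65 for Uqcrh, 0.68 for Uqcr10, 0.66 for Uqcrq and -0.42 for Uqcrc1, which was not called after rescaling (adjusted p = 0.371). Complex IV members differed by 1.85 (Cox6a2), 0.65 (Cox6c), 0.55 (mt-Co1), 0.47 (Cox7a2l), 0.45 (Cox8a), 0.44 (Cox6b1) and 0.43 (Cox4i1). In complex V the values were 0.86 for Atp5mpl and 0.50 for Atp5g2, and the assembly factor Ndufaf1 differed by -1.06. With each table's own spread limma did not call Ndufa6 (adjusted p = 0.0632), Uqcrq (adjusted p = 0.0602) or Cox6b1 (adjusted p = 0.1).

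Between glioma and the mean of the other 5 models, the change from reference to GFP-positive libraries differed for 8 mitochondrial members (limma, log2 scale). This comparison was added after the values were seen, and 28.2% of all genes were lower in it. The difference was -1.44 for mt-Nd6, -1.21 for mt-Nd5, -1.05 for mt-Cytb, -1.03 for mt-Nd4, -0.97 for mt-Nd1, -0.90 for mt-Nd2, -0.73 for mt-Atp6 and -0.35 for mt-Atp8. Of these, mt-Atp8 was not called by limma with each table's own spread (adjusted p = 0.0697) or after rescaling (adjusted p = 0.514).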

How the results depend on the processing

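Median-of-ratios scaling moved the count of members called, GFP-positive against GFP-negative, to 23 in cuprizone, 13 in glioma, 23 in 5xFAD, 2 in the P6 stroke and 62 in the P28 stroke; against the reference it gave 40, 63 and 67 for GFP-positive libraries of cuprizone, 5xFAD and the P28 stroke and 44 and 34 for GFP-negative libraries of EAE and 5xFAD, and 28 for the difference between the strokes. It turned 26 of 537 single values to the other sign. GFP-positive against reference, these were in 5xFAD Atp5a1 (0.30), Atp5c1 (0.28), Atp5pb (0.21), Ndufa4 (0.44), Ndufs3 (0.034), Ndufv2 (0.083) and Uqcrc1 (0.076), in EAE Atp5pb (0.068), in the P28 stroke Ndufa10 (0.058), Ndufa9 (0.00) and Ndufs8 (0.033), and in glioma Ndufaf1 (0.074), Ndufs1 (0.057), Ndufs8 (0.30), Ndufv1 (0.13), Uqcrc1 (0.36), mt-Atp6 (0.52), mt-Cytb (0.025) and mt-Nd1 (0.0093). In GFP-negative against reference they were Uqcrc1 (0.015) in 5xFAD, Ndufv1 (0.037) in EAE, and Ndufs8 (0.11) and Uqcrc1 (0.19) in glioma, and between the GFP groups mt-Nd1 (0.31) and mt-Nd5 (0.35) in 5xFAD and Uqcrc1 (0.022) in the P28 stroke. With the chromosome 1 copies added, mt-Nd3 turned to 0.27 between the GFP groups of the P28 stroke and to -0.60 in glioma against the reference, where it ran from -1.91 (without control replicate 2) to 1.41 (without control replicate 1). Without the filter the counts were 3 and 17 in cuprizone (GFP-positive against GFP-negative and against the reference), 3 in glioma and 1 in 5xFAD between the GFP groups, and 0 in the P6 stroke against the reference; without table weights 10 members differed between the strokes. No label says that replicate numbers pair libraries, though outside 5xFAD the column headers put a shared number before the GFP gate. Correlations of same-numbered pairs ran from -0.08 to 0.20 over 66 pairs, not all above 0.1 in any model. These include pairs with wild type references, which cannot be the same animals. Same-numbered pairs were above 0 in 12 of 12 for the P6 stroke (13 of 36 other pairs) and 11 of 12 for the P28 stroke. In the P6 stroke 10 of 12 libraries correlated best with their own number. Between the GFP groups alone, same-numbered pairs of glioma ran from 0.007 to 0.203, and the lowest was below 0 in cuprizone, EAE and 5xFAD. The data thus hint at pairing in glioma and both strokes, which the main fits do not use. A replicate block gave 8 calls between the GFP groups of glioma and left the other counts within 1.5 times. The cause of these shifts was not tested. With single libraries left out the counts were, GFP-positive against GFP-negative, 2 to 6 in cuprizone, 2 to 9 in glioma, 1 to 5 in 5xFAD, 0 to 5 in the P6 stroke and 20 to 39 in the P28 stroke; GFP-positive against reference, 12 to 25, 68 to 73, 32 to 40, 0 to 5 and 32 to 51 in the same order and 20 to 41 in EAE; GFP-negative against reference, 56 to 61 in glioma, 16 to 29 in EAE and 15 to 22 in 5xFAD. Contrasts with 0 calls, other than the P6 stroke between GFP groups, had 0 in each such fit. The differences between models gave 26 to 38, between the strokes 14 to 27 and for glioma 54 to 61. A pseudocount of 0.1 ended 2 of 537 single calls, a sex term 8 of 79, and totals without mt- genes 3 of 339. With 3 or 4 libraries a group and unknown depth, small changes of low members could not be resolved.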
